A study of Mus musculus with 3 samples.

Results

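The genes described here are 35 listed interferon-stimulated genes, of which 34 had a row among the 31053 genes of the deposited count table. Mx2 was not analysed here. The list names genes and uses no measured value as a criterion, but it was drawn up with earlier results of these data known. The 34 genes were followed through the cell types of mouse pancreatic islets in 3 droplet-based single-cell RNA libraries, 1 per group. Cells came from male C57Bl6/J retired breeders aged 7 to 8 months that carried pumps for 2 weeks. In the S961 group the pumps delivered S961, a peptide that blocks the insulin receptor, with 20 nM per week given on the labels, and in the control group they held no S961. The recovered group carries the same labels for the course of treatment, followed by removal of the pumps. The labels give neither the length of the recovery nor the number of mice behind a library. All islets were cultured overnight and dispersed with TrypLE, a trypsin substitute, before capture. With 1 library per group no difference had a replicate check, so every interval below covers counting error only. A difference between groups and a difference between these 3 preparations cannot be told apart.

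Type I and type III interferons bind paired receptors that activate the kinases Jak1 and Tyk2, and a complex holding STAT2 and IRF9 then binds a DNA element called the interferon-stimulated response element (ISRE). Type II interferon acts through its own receptor and on a different element, the gamma-activated sequence (GAS). The induced proteins sense viral RNA, degrade or trap viral products, carry antigen presentation and feed back on the signal. Islet cells, beta cells among them, carry these receptors and are known for a strong response of this kind in autoimmune diabetes and in viral infection.

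The ISRE core stood before the start of many of these genes, so the sequences are shown first. The 250 bases before each start in the RefSeq promoter table (GRCm38.p6) were searched on both strands for the ISRE core GAAANNGAA and the GAS motif TTCNNNGAA. Windows were found for 27 of the 34 genes, and Ifi27l2a, Iigp1, Mx1, Parp14, Rtp4, Usp18 and Zbp1 had none. The ISRE core stood before 14 of the 27 genes, in 8 of them more than once. Counted over windows, 42.4% of the 33 windows of these genes held the core, against 7.13% of all 32851 windows in the table. The GAS motif stood in 21.2% of the windows, against 7.02% of all. A match describes letters and does not show a bound site. The lines below give, in GRCm38, the matched stretch with 12 bases on each side, 5′ to 3′ on the gene's strand, with the ISRE matches in capitals; GAS matches are not marked. Bst2, Ifit1, Rsad2, Ifih1, Stat2, Gbp7 and Igtp are shown because they had the most UMIs in beta cells among the genes whose ISRE match lies outside exons; Irgm1, with 683 UMIs, was left out because its match lies in an exon of Irgm1. Ifit3, Ifit3b and Isg15 were added after their values were seen. All stretches lie between annotated genes.
Bst2, chr8:71537576-71537614, minus strand, 142 to 104 bases before the start: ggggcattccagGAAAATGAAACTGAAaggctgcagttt
Ifit1, chr19:34640768-34640825, plus strand, 121 to 64 bases before: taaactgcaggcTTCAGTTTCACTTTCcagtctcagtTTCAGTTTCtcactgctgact
Rsad2, chr12:26456551-26456583, minus strand, 131 to 99 bases before: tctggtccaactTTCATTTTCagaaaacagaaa
Ifih1, chr2:62646347-62646379, minus strand, 124 to 92 bases before: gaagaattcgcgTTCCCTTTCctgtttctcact
Stat2, chr10:128270265-128270297, plus strand, 233 to 201 bases before: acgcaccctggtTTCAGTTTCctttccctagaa
Gbp7, chr3:142530272-142530304, plus strand, 64 to 32 bases before: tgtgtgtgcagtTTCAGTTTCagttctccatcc
Igtp, chr11:58199510-58199542, plus strand, 46 to 14 bases before: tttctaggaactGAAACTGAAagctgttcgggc
Ifit3, chr19:34583362-34583447, plus strand, 167 to 82 bases before: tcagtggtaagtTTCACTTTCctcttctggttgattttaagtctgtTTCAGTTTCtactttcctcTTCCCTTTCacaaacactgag
Ifit3b, chr19:34607758-34607843, plus strand, 199 to 114 bases before: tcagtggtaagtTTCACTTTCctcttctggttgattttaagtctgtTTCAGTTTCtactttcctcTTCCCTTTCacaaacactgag
Isg15, chr4:156200864-156200908, minus strand, 90 to 46 bases before: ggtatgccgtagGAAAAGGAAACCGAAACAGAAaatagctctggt

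The stretches of Ifit3 and Ifit3b are identical over their 86 bases. The 4 Ifit genes lie side by side on chromosome 19, from Ifit2 (annotated start 34550694) to Ifit1 (annotated end 34650009), all on the plus strand. Reads of Ifit3 and Ifit3b, of the Gbp genes and of the Oas genes can be split between near-identical copies by the authors' counting, so single values of these genes are uncertain. In the annotation (GENCODE M21) 11 of the listed genes overlap another gene, among them Irf7 with Phrf1 on the other strand and Igtp with Irgm2 on the same strand.

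Unique molecular identifiers (UMIs), each standing for 1 captured RNA molecule, were counted. The analysed cells numbered 4267, 3430 and 3513 in the control, S961 and recovered libraries, and all values below are in this order unless a library is named. The median depth was 6501, 9944 and 8577 UMIs per cell, and the median mitochondrial share was 6.16, 4.24 and 6.13%. Analysed barcodes shared between libraries numbered 3 for control and S961, 2 for S961 and recovered and 8 for control and recovered. Cell types were rebuilt from 16 marker sets and are called "-like", and levels are UMIs summed over the cells of a type per 1000000 UMIs of that type (CPM). Because 3′ counts carry no length scale, levels are compared within a gene and not between genes. A gene counted as measured in a comparison with at least 50 UMIs over its 2 libraries, and as higher or lower at 1.5-fold or more. A gene near that minimum can be measured only because it is high in 1 of the 2 libraries, so counts of measured genes are descriptions. In summed counts, fewer responding cells and less RNA per cell cannot be told apart. Insulin RNA, which free RNA carries into other droplets, made up 0.610 to 3.51% of UMIs in alpha-like cells and 0.303 to 7.63% in delta-like cells, lowest in the S961 library in both.

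In beta-like cells (2949, 1492 and 2077 cells) the interferon-stimulated genes were low in all 3 libraries. Ifit3 and Isg15 lay within counting error of each other in control and S961 cells and stood more than 2-fold higher in recovered than in control cells, and 21 recovered cells carried most of that RNA. The 34 genes together made up 605, 665 and 622 CPM. Lgals3bp and Isg20 alone held 63.3, 66.3 and 58.1% of those UMIs, and the other 32 genes came to 222, 224 and 260 CPM.

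Among the antiviral effectors, Ifit3, which binds foreign RNA together with Ifit1, had 99, 80 and 223 UMIs, or 4.36, 3.69 and 9.93 CPM. Control and S961 levels lay within counting error of each other, and recovered stood above both. The log2 ratio of recovered over S961 was 1.43 (95% interval 1.05 to 1.82) and that of recovered over control was 1.19 (0.84 to 1.54). Ifit1, which recognises the cap of viral RNA, had 309, 268 and 432 UMIs, or 13.6, 12.4 and 19.2 CPM. It was higher in recovered than in S961 cells (log2 ratio 0.64, 0.41 to 0.86), while its ratio over control of 0.50 stayed under 1.5-fold. Ifit3b, the near copy of Ifit3, had 31, 25 and 43 UMIs, and its ratio of recovered over S961 (0.73, -0.01 to 1.5) did not exclude equality.

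Isg15, a ubiquitin-like protein that is joined to other proteins, had 19, 25 and 43 UMIs, or 0.837, 1.15 and 1.91 CPM. The recovered library was again the highest, at a log2 ratio of 1.19 over control (0.38 to 2.05). Oasl2, a member of the oligoadenylate synthetase family, had 122, 101 and 188 UMIs, or 5.38, 4.66 and 8.37 CPM, with a log2 ratio of 0.85 over S961 (0.49 to 1.21) and of 0.64 over control (0.30 to 0.98). Oasl1 of the same family had 37, 29 and 59 UMIs, and its ratios were 0.97 (0.31 to 1.67) and 0.69 (0.07 to 1.32). Both Oasl genes thus stood highest in recovered, as the Ifit genes did, while the intervals of their control and S961 levels overlapped. Mx1, a gene of a GTPase family, had 52, 29 and 56 UMIs, or 2.29, 1.34 and 2.49 CPM. It differed from the Oasl genes in that control stood as high as recovered, and S961 was lower than control by a log2 ratio of -0.78 (-1.49 to -0.09).

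The cytosolic RNA sensors did not follow the Ifit genes. Ifih1, which encodes MDA5, had 205, 314 and 281 UMIs, or 9.03, 14.5 and 12.5 CPM, and was the only one of the 28 measured genes at 1.5-fold or more higher in S961 than in control beta-like cells (log2 ratio 0.68, 0.42 to 0.94). Its recovered level lay between the other libraries. Ddx58, which encodes RIG-I, had 11.8, 13.5 and 13.9 CPM, with ratios of 0.19 and 0.05 for S961 over control and recovered over S961. Rsad2, which encodes viperin, a radical enzyme that makes a chain terminator of viral RNA synthesis, had 224, 277 and 313 UMIs, or 9.87, 12.8 and 13.9 CPM. Its ratio of recovered over control was 0.50 (0.25 to 0.75), under 1.5-fold. Parp14, an ADP-ribosyltransferase, had 12.2, 13.1 and 16.6 CPM, with a ratio of 0.45 (0.22 to 0.68) over control.

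Among the transcription factors and regulators, Irf7, the factor that amplifies interferon production, had 244, 136 and 278 UMIs, or 10.8, 6.27 and 12.4 CPM. The S961 library stood apart as the low one: the log2 ratio of S961 over control was -0.78 (-1.09 to -0.47) and that of recovered over S961 was 0.98 (0.68 to 1.29). Irf1, which answers to both interferon types, had 439, 463 and 478 UMIs, or 19.3, 21.3 and 21.3 CPM, within 0.14 of each other on the log2 scale. Irf9 (13.2, 11.3 and 11.6 CPM) and Stat2 (11.5, 10.5 and 13.7 CPM), the partners that bind the ISRE, and Usp18 (12.9, 14.3 and 13.8 CPM), the protease that removes Isg15 and damps the receptor, stayed under 1.5-fold in every comparison. Ifi35, a partner protein of this response, had 377, 376 and 365 UMIs, or 16.6, 17.3 and 16.2 CPM.

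The GTPases that act on vacuoles of pathogens were present at low levels. Igtp had 113, 127 and 171 UMIs, or 4.98, 5.86 and 7.61 CPM, and was higher in recovered than in control cells (log2 ratio 0.61, 0.26 to 0.97). Gbp2 had 28, 31 and 21 UMIs, with a ratio of recovered over S961 of -0.61 (-1.49 to 0.23), an interval that includes equality. Gbp7 (9.69, 9.41 and 11.8 CPM), Irgm1 (9.21, 10.5 and 10.9 CPM) and Gbp3 (2.07, 1.80 and 1.42 CPM) were at 1.5-fold or more in no comparison.

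The membrane, secreted and nuclease genes held most of the UMIs and differed little. Lgals3bp, a secreted glycoprotein, had 5153, 6266 and 5257 UMIs, or 227, 289 and 234 CPM, and its S961 level lay above both others by a log2 difference of about 0.3 (0.35, 0.29 to 0.40, over control). Isg20, an exonuclease that degrades viral RNA, had 3529, 3298 and 2860 UMIs, or 155, 152 and 127 CPM, lowest in recovered (-0.29, -0.36 to -0.22, over control). Bst2, or tetherin, which holds budding virions at the membrane, had 550, 423 and 389 UMIs, or 24.2, 19.5 and 17.3 CPM. Its recovered level was lower than that of control, opposite to Ifit3 (log2 ratio over control -0.49, -0.68 to -0.30). Ifitm3, which blocks viral fusion, had 12, 28 and 15 UMIs in beta-like cells (0.529, 1.29 and 0.668 CPM), and Ifi27l2a, a small mitochondrial protein gene, had 10, 5 and 5. Ifit2, Ifi44, Iigp1, Ifitm3 and Ifi27l2a were too sparse to be measured in any comparison of beta-like cells.

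**Figure D1:**
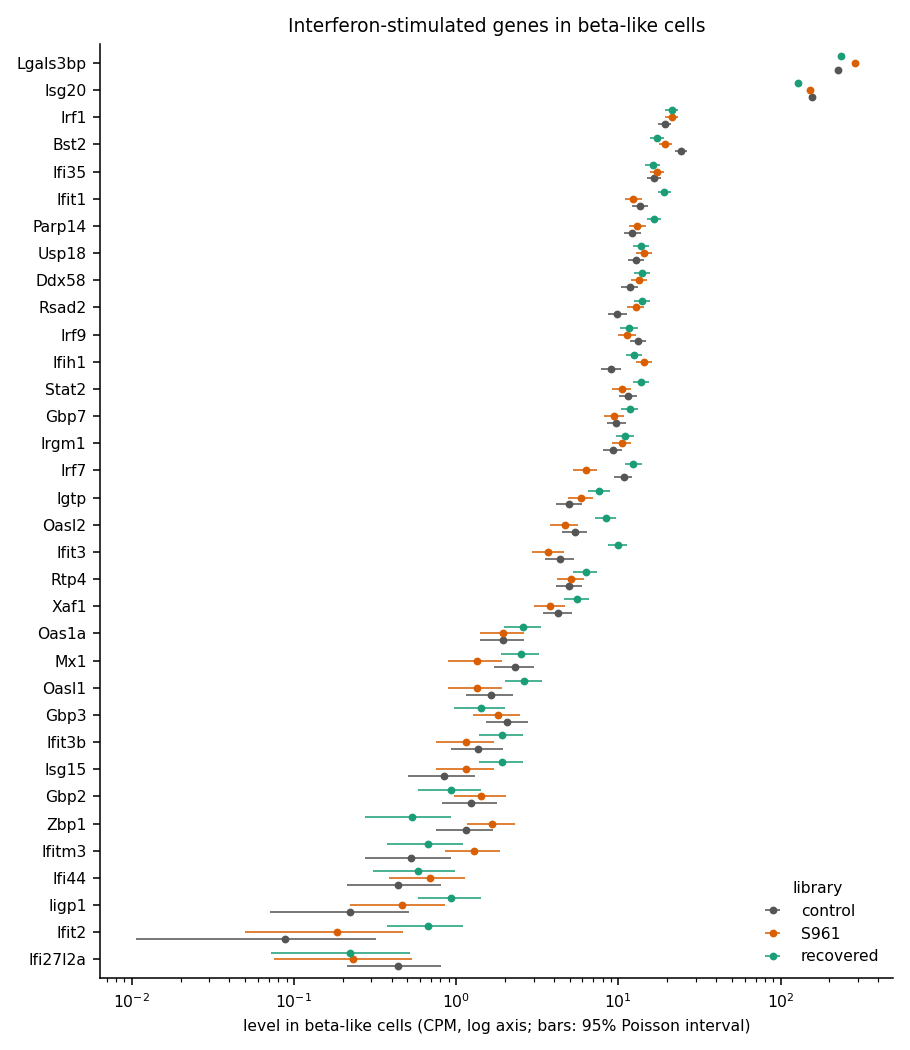
Levels of the interferon-stimulated genes in beta-like cells, in CPM on a log axis, 1 point per gene and library with the exact Poisson 95% interval of counting. Ifit3 and Isg15 stand highest in the recovered library, Irf7 and Mx1 lowest in the S961 library, and Irf1 and Ifi35 at about the same level in all 3.

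Counted over the list, S961 beta-like cells differed little from control: of 28 measured genes 1 was higher and 2 were lower, with a median log2 ratio of -0.02. Over all genes 6.13% were higher and 2.78% lower in that comparison, with a median of -0.02. Of 28 genes measured in recovered over S961, 8 were higher and 1 was lower, against 3.48% and 3.46% of all genes, and the median was 0.31 against 0.06. Of 27 measured in recovered over control, 5 were higher (Ifit3, Isg15, Oasl1, Oasl2 and Igtp) and none lower, against 3.16% and 1.11% of all genes, and the median was 0.28 against 0.05. Isg15, with 19 UMIs in control and 43 in recovered, reached the minimum there only through its higher recovered level. Gbp2, the lower gene in recovered over S961 (31 UMIs in S961 and 21 in recovered), reached it only through its higher S961 level. By role, 7 of 13 measured effectors were higher in recovered than in S961 cells, with a median of 0.64. Of the 7 transcription factors and regulators 1 was higher (Irf7), with a median of 0.03.

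Genes with the ISRE core before their start had a median log2 ratio of recovered over control of 0.47 (13 measured), and those with a window and no core had one of 0.17 (10 measured). In S961 over control the medians were -0.04 (13 measured) and -0.10 (10 measured).

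The Ifit3 excess in recovered beta-like cells lay largely in few cells. Cells were thinned to 2000 UMIs each, and those with at least 5 of the 32 genes other than Lgals3bp and Isg20 were set apart and are called ISG-rich; this class was defined after values of these data were seen, and it is a range of a count, not a cell type. It held 9 of 2795 control cells (0.322%, exact Clopper-Pearson 95% interval 0.147 to 0.610), 4 of 1416 S961 cells (0.282%, 0.077 to 0.722) and 21 of 2026 recovered cells (1.04%, 0.643 to 1.58). Cells at 4 or more of the genes numbered 17, 11 and 31. The most genes seen in 1 cell were 10, 10 and 14.

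The share of beta-like cells with UMIs of at least 3 of the 34 genes was alike in the libraries, at 7.37% (6.43 to 8.40), 7.56% (6.23 to 9.06) and 7.21% (6.12 to 8.42) after thinning, with 154, 76 and 51 shallower cells left out. Without thinning it was 50.4, 63.2 and 64.6%, at median depths of 7479, 14013.5 and 10279 UMIs. In other types the thinned share at 5 or more genes was 18, 15.2 and 26.4% of endothelial-like cells and 3.64, 7.61 and 16.3% of stellate or fibroblast-like cells.

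Ifit3 and Ifit1 met in the same cells of the recovered and S961 libraries, though S961 had only 7 thinned cells with Ifit3. Of 24 thinned recovered beta-like cells with a UMI of Ifit3, 11 (45.8%) also had Ifit1, against 2.45% of the 2002 cells without Ifit3. In the control library 1 of 16 such cells did (6.25%, against 2.95%). In the S961 library 3 of 7 did (42.9%, against 1.49% of the 1409 cells without Ifit3).

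**Figure D2:**
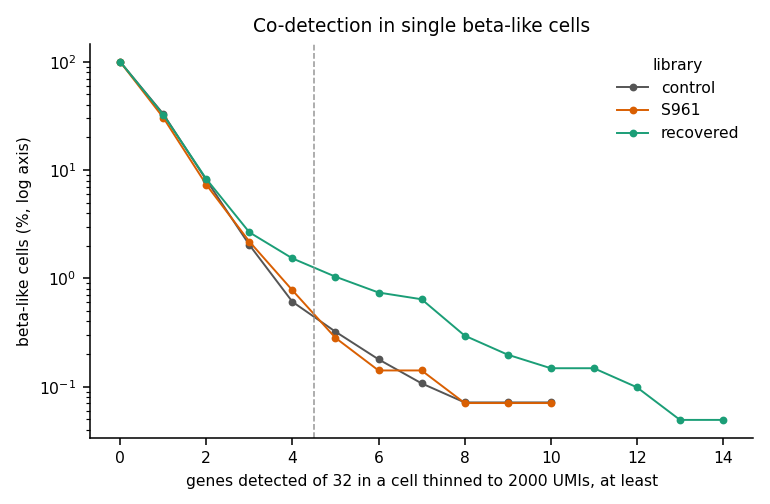
Beta-like cells thinned to 2000 UMIs: the percentage of each library's cells (vertical axis, log scale) that hold at least the given number of the 32 genes (horizontal axis), with a dashed line before 5. The libraries lie together at low numbers, and the recovered library has the longest tail, reaching 14 genes.

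The UMIs left over by the thinning did not enter the choice of cells and give a second reading of the same cells. In these left-over UMIs the 32 genes stood at 3017 CPM in control ISG-rich cells against 211 CPM in other control beta-like cells, at 5992 against 210 in S961, and at 4398 against 218 in recovered. The level in the other cells was thus nearly equal in the 3 libraries. In the recovered library the ISG-rich cells held 0.954% of all left-over UMIs of beta-like cells and 16.3% of those of the 32 genes. In control and S961 they held 0.190 and 0.239% of all, and 2.65 and 6.38% of those of the 32 genes.

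Gene by gene, the recovered ISG-rich cells held 71.9% of the left-over Ifit3 UMIs, at 760 CPM against 2.86 CPM in the other cells. They held 54.1% of Isg15 (114 against 0.935 CPM) and 82.4% of those of Iigp1, an immunity-related GTPase. They held 33.3% of Rsad2 (451 against 8.69 CPM), 28.8% of Ifit1 (565 against 13.5 CPM) and 19.3% of Irf7 (251 against 10.1 CPM). Irf1 and the most abundant genes were spread instead: the same cells held 1.27% of Irf1, 2.71% of Isg20, 2.11% of Lgals3bp and 2.61% of Ifi35.

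Other genes of the pathway that the choice did not use were read in the same cells. Of 105 listed, 54 were measured in the recovered library, and 31 were higher in ISG-rich than in other cells at 1.5-fold or more with an interval off equality and 0 lower, against 3.38% and 0.858% of all genes. Of these, 29 were among the 33 measured induced genes and 0 among 5 receptors. Ddx60, a helicase cofactor of RIG-I, stood at 203 against 7.55 CPM, Oas2 at 41.5 against 1.08 CPM, and B2m, the light chain of class I antigen presentation, at 129 against 42.2 CPM. Cxcl10, a chemokine for T cells, had 7 UMIs in the 21 ISG-rich cells and 12 in all others (32.2 against 0.539 CPM). Jak1, by contrast, lay at 111 against 98.8 CPM (log2 ratio 0.16, -0.48 to 0.74). These 5 genes were chosen after their values were seen. In the control library 13 of 54 measured pathway genes were higher, against 2.37% of all genes (0.747% lower), and in S961 24 of 53, against 5.54% (0.206% lower).

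Markers of other cells and quality measures stood beside this class as follows. In the recovered library the ISG-rich cells had a median of 10040 UMIs and 8.75% mitochondrial UMIs, against 10285.5 and 7.24% in the other beta-like cells, and insulin made up 27.7 against 31.2% of their UMIs. Markers of T or NK cells had 0 UMIs in them, macrophage markers 36.9 against 46.7 CPM and endothelial markers 9.21 against 4.09 CPM. In S961 the 4 ISG-rich cells had macrophage markers at 171 against 66.7 CPM, beta markers at 251593 against 424613 CPM and insulin at 18.9 against 33.3% of UMIs. In control the 9 had macrophage markers at 39.9 against 41.3 CPM, beta markers at 378355 against 400894 CPM and insulin at 30.9 against 30.8%. In recovered, markers of PP cells, the islet cells that make pancreatic polypeptide, stood at 3128 against 992 CPM. A UMI of them was in 17 of the 21 cells (81.0%), against 86.7% of the other beta-like cells. All 9 control, 3 of 4 S961 and 20 of 21 recovered ISG-rich cells lay in 1 beta-like cluster, led by the heat shock, metallothionein and stress genes Hspa1b, Hspa1a, Mt2, Ddit3 and Hmox1. All 8 beta markers were detected in that cluster, but none stood among its 10 leading genes. That cluster held 17.2, 6.77 and 12.3% of beta-like cells, and Ifit3 stood there at 23.5, 34.1 and 85.5 CPM, against 0.722 to 1.52 CPM in the other beta-like clusters. The part of stress, depth and mixed cells in this result was not tested.

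Ratios in left-over UMIs, which the choice of cells did not use, were also taken with and without the ISG-rich cells. In recovered over control Ifit3 had a log2 ratio of 1.17 (0.77 to 1.57) over all thinned beta-like cells and -0.38 (-0.94 to 0.17) without the ISG-rich ones. Over S961 it had 1.43 (1.03 to 1.85) and 0.65 (0.0018 to 1.32). Ifit1 had 0.56 (0.31 to 0.81) and 0.12 (-0.16 to 0.39), and Oasl2 0.60 (0.21 to 0.99) and 0.16 (-0.26 to 0.59). Igtp differed from them, at 0.75 (0.33 to 1.18) with and 0.63 (0.20 to 1.06) without those cells. Isg15 had 37 and 12 left-over UMIs with them, and 17 and 10 without (0.66, -0.55 to 1.95).

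In all UMIs, which include those that chose the cells and so must be lower without them, Ifit3 without the ISG-rich cells stood at 3.36, 1.85 and 2.92 CPM, Ifit1 at 13.2, 11 and 13.5 CPM and Isg15 at 0.707, 0.971 and 0.899 CPM. Of 25 measured genes 0 were higher and 2 lower in recovered over control, and 3 were higher in recovered over S961. Irf7 was among those, at a log2 ratio of 0.79 (0.47 to 1.12). In beta-like cells free of UMIs of immune, endothelial and stellate markers (1430, 469 and 672 cells), 0 of 21 measured genes were higher in recovered than in control, and Ifit3 had a ratio of -0.089. Deeper cells hold a marker UMI more often, so this filter also selects on depth. The markers of plasmacytoid dendritic cells, an immune type, include Irf8, which is also on the pathway list. A UMI of that set was in 14 of 21 recovered ISG-rich cells and 50% of the others. This filter thus cannot separate mixed cells from the response itself.

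**Figure D3:**
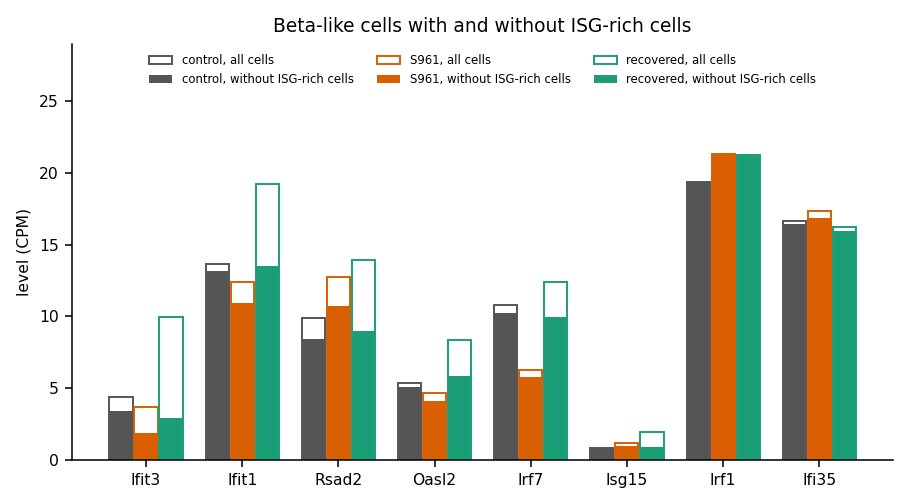
Levels (CPM, from 0) of 8 genes in all beta-like cells (open bars) and without the ISG-rich cells (filled bars), by library; the cells left out were chosen by UMIs of genes of this list. For Ifit3 the recovered bar drops from 9.93 to 2.92 CPM, while the bars of Irf1 and Ifi35 hardly differ.

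Interferon RNA itself was scarcely seen. Over all analysed cells Ifna1, Ifna2, Ifna4, Ifna5, Ifna6, Ifnb1, Ifne, Ifnl2 and Ifnl3 had 0 UMIs, Ifng had 1 UMI in the S961 library and none in the others, Ifnk had 2 in S961 and Ifnab 1 each in control and S961. The receptor chains were present in beta-like cells. Ifnar1 stood at 14.2, 13.1 and 13.4 CPM, and Ifnar2, its partner for type I interferon, at 10.8, 17.0 and 10.2 CPM, higher in S961 than in control (log2 ratio 0.65, 0.42 to 0.89). For type II interferon, Ifngr1 stood at 13.1, 13.6 and 11.3 CPM and Ifngr2 at 7.18, 11.8 and 6.5 CPM, again highest in S961 (0.72, 0.43 to 1.01). Ifnlr1, the type III chain, had 1, 2 and 4 UMIs.

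Downstream, Jak1 (90.5, 76.2 and 98.9 CPM) stayed under 1.5-fold in S961 over control, and the feedback inhibitor Socs1 had 17, 24 and 19 UMIs. The 3 lower genes of the pathway list were B2m (45.3, 21.6 and 43.0 CPM, log2 ratio of S961 over control -1.07, -1.23 to -0.91), Oas2 (2.20, 1.06 and 1.47 CPM) and Ticam1, the adaptor of Tlr3 (11, 7.19 and 9.44 CPM). Over the 56 pathway genes measured in S961 over control, 2 were higher and 3 lower with a median of -0.02. In recovered over S961 3 were higher and 2 lower, and in recovered over control 2 higher and 0 lower.

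Alpha-like cells (311, 459 and 276 cells), named by markers of glucagon-making cells, also held many UMIs of PP markers. PP markers stood in them at 135714, 135583 and 124083 CPM, and alpha markers at 155566, 171588 and 182382 CPM. Beta markers stood at 48012, 10712 and 24926 CPM. The part of PP and beta markers in the values below was not tested. The largest difference in alpha-like cells was in Bst2. It had 57, 66 and 18 UMIs, or 36.7, 13.6 and 9.24 CPM, so that control stood above both other libraries (log2 ratio of S961 over control -1.43, -1.96 to -0.89, and of recovered over control -1.99, -2.84 to -1.21). Ifih1 went the other way, with 60, 333 and 121 UMIs, or 38.7, 68.9 and 62.1 CPM (0.83, 0.43 to 1.3, in S961 over control). Xaf1, an apoptosis-linked gene, had 7 and 43 UMIs in control and S961 (0.98, -0.19 to 2.38), and Parp14 had 36 and 76 (-0.56, -1.15 to 0.05). Lgals3bp stood at 239, 300 and 269 CPM and Isg20 at 102, 122 and 97.5 CPM.

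Over the list in alpha-like cells, 4 of 15 measured genes were higher and 1 lower in S961 over control, against 6.84% and 1.94% of all genes. In recovered over S961 0 of 16 were higher and 4 lower, against 2.55% and 4.49%. In recovered over control 1 of 11 was higher and 2 were lower, against 4.49% and 2.41%. Xaf1 (7, 43 and 10 UMIs) reached the minimum in S961 over control and in recovered over S961 only through its higher S961 level. Igtp (43 and 11 UMIs in S961 and recovered) did so in recovered over S961. Bst2 (57 and 18 UMIs) reached it in recovered over control only through its higher control level. These counts are therefore descriptions.

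Delta-like cells (362, 343 and 229 cells), which make somatostatin, had Rtp4 and Bst2 lowest in the recovered library. Rtp4, which binds viral RNA and escorts receptors, had 144, 228 and 70 UMIs, or 74.4, 69.1 and 38.0 CPM, with a log2 ratio of recovered over S961 of -0.86 (-1.27 to -0.47). Bst2 stood at 52.2, 32.1 and 18.5 CPM, lower in S961 than in control (-0.70, -1.11 to -0.29) and lower again in recovered (-0.80 over S961). Bst2 thus stood highest in control in beta-, alpha- and delta-like cells. The intervals of its S961 and recovered levels overlapped in beta-like cells (17.7 to 21.5 and 15.6 to 19.1 CPM). They also overlapped in alpha-like cells (10.6 to 17.4 and 5.48 to 14.6 CPM). Rsad2 had 28 and 24 UMIs in control and S961 (-0.99, -1.84 to -0.15), Parp14 25 and 71 (0.74, 0.06 to 1.46) and Igtp 15 and 40 (0.65, -0.24 to 1.61). Lgals3bp stood at 246, 282 and 251 CPM and Isg20 at 136, 147 and 109 CPM.

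Of 18 genes measured in delta-like cells in S961 over control, 3 were higher and 2 lower, against 8.60% and 2.74% of all genes. Igtp (15 and 40 UMIs), among the higher ones, reached the minimum only through its higher S961 level. In recovered over S961 0 of 15 were higher and 8 lower, against 2.88% and 6.20%, and the median log2 ratio was -0.62 against -0.08 for all genes. Delta markers stood in these cells at 68553, 93762 and 66933 CPM and PP markers at 72117, 101063 and 70656 CPM. Beta markers stood at 146952, 54883 and 140437 CPM and alpha markers at 845, 703 and 4520 CPM. The part of the PP, beta and alpha markers in the result was not tested. In recovered over control 0 of 13 were higher and 3 lower, against 3.66% and 2.33%. Irf9 (37 and 21 UMIs in control and recovered), among the lower ones, reached the minimum only through its higher control level.

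Endothelial-like cells (156, 215 and 81 cells) held far more of this RNA, at 2912, 2746 and 4161 CPM for the 34 genes together. Ifitm3 had 888, 2149 and 865 UMIs, or 1377, 1378 and 1957 CPM, with a log2 ratio of recovered over S961 of 0.51 (0.39 to 0.62). Bst2 stood at 239, 216 and 376 CPM, here with recovered highest, and Rsad2 at 200, 262 and 176 CPM. Irf7 repeated its beta cell pattern, with 71, 81 and 46 UMIs, or 110, 52.0 and 104 CPM (-1.08, -1.56 to -0.60, in S961 over control and 1.00 in recovered over S961). Lgals3bp was lower in S961 than in control (-1.03, -1.60 to -0.45). Among genes with at least 50 UMIs, the largest ratios upward in S961 over control were those of Xaf1 (0.57, -0.23 to 1.44) and Irgm1 (0.40, -0.46 to 1.35), both under 1.5-fold.

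Of 23 genes measured in endothelial-like cells in S961 over control, 0 were higher and 5 lower, against 10.4% and 4.39% of all genes. In recovered over S961 13 of 25 were higher and 0 lower, against 5.38% and 7.05%, with a median of 0.80 against -0.02 for all genes. Of those 13, Ifit3, Iigp1, Gbp3, Usp18 and Ifi44 reached the minimum of UMIs only through their higher level in the recovered library. The count is therefore a description. In recovered over control 5 of 13 were higher and 0 lower, against 8.52% and 4.56%, and Parp14 and Gbp7 reached the minimum there only through recovered. Of the 13 genes higher in recovered over S961, Ifit3 had 15, 26 and 28 UMIs (23.3, 16.7 and 63.4 CPM). Isg15 had 57, 131 and 82 UMIs (88.4, 84.0 and 186 CPM). Both, and Ifit1 in the next sentence, were named after their values were seen. The 3 cells with most Ifit1 UMIs held 77.4, 75.0 and 73.8% of its UMIs in this type. Macrophage markers stood in these cells at 18.6, 64.8 and 15.8 CPM and T or NK markers at 1.55, 3.85 and 22.6 CPM. The stromal genes Rgs5 and Dcn stood at 79.1, 33.4 and 213 CPM and at 0, 0 and 124 CPM, and beta markers at 72631, 10713 and 19595 CPM. The part of these markers in the result was not tested.

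Stellate or fibroblast-like cells (94, 207 and 51 cells), the support cells around islet vessels and in the capsule, had 0 UMIs of Ifit1 and of Rsad2 in control and more than 50 of each in recovered. The 34 genes together stood at 1560, 2345 and 5651 CPM. Ifitm3 had 323, 2608 and 900 UMIs, or 1063, 1560 and 2849 CPM, with a log2 ratio of recovered over S961 of 0.87 (0.76 to 0.98). Bst2 had 26, 267 and 127 UMIs, or 85.6, 160 and 402 CPM, lowest in control and highest in recovered, while beta-, alpha- and delta-like cells had it highest in control. Isg15 had 9, 113 and 78 UMIs, or 29.6, 67.6 and 247 CPM.

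Ifit3 had 1, 56 and 62 UMIs in these cells, or 3.29, 33.5 and 196 CPM (3.35, 0.81 to 8.68, in S961 over control and 2.55, 2.01 to 3.10, in recovered over S961). Ifit1 had 0, 17 and 56 UMIs and Rsad2 0, 21 and 51, both named after their values were seen. Against a floor of 3 UMIs set for the control library, Ifit1 was 18-fold and Rsad2 16.4-fold higher in recovered. These are point values and not lower limits, since the interval of a control count of 0 reached 12.1 CPM and the floor stood at 9.87 CPM. Irf1 had 12 and 43 UMIs in control and S961 (-0.62, -1.57 to 0.44) and Isg20 11 and 41 (-0.56, -1.55 to 0.55).

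A handful of cells carried these sums. In the recovered library 3 of the 51 cells held 95.2% of the Ifit3 UMIs and only 4 cells had any. The 3 highest cells held 83.9% of Ifit1 and 90.2% of Rsad2. Without the 3 highest cells of each gene Ifit3 stood at 9.50 CPM and Ifit1 at 28.5 CPM. Ifitm3 and Bst2 were broader: 49 of 51 cells had Ifitm3, which stood at 2077 CPM without its 3 highest cells, and Bst2 stood at 212 CPM.

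Of 9 genes measured in stellate or fibroblast-like cells in S961 over control, 4 were higher and 1 lower, against 24.7% and 6.94% of all genes. Among the higher ones, Ifit3 (1 and 56 UMIs in control and S961) and Rtp4 (5 and 47) reached the minimum only through their higher S961 level. That count is therefore a description. In recovered over S961 9.50% of all genes were higher and 21.5% lower, with a median of -0.15. No count is read from the list in that comparison. Ifit1, Rsad2, Iigp1, Gbp2, Zbp1, Irf7, Oasl2, Ifi27l2a and Isg20 each had under 50 UMIs in S961. They reached the minimum only through their higher level in the recovered library. In recovered over control 18.6% of all genes were higher and 9.49% lower. No count is read from the list, since Ifit1, Rsad2, Ifit3 and Iigp1 reached the minimum through the recovered library alone. Bst2 had a log2 ratio of 2.23 (1.61 to 2.90) and Ifitm3 of 1.42 (1.24 to 1.61). The cells behind these sums were not alike in the libraries. The stellate or fibroblast markers stood at 5171, 8988 and 14551 CPM, Dcn, a fibroblast marker, at 250, 577 and 1510 CPM, and insulin at 10.4, 1.41 and 2.79% of UMIs. T or NK markers stood at 0, 6.58 and 136 CPM and macrophage markers at 9.87, 79.0 and 225 CPM. In the recovered library 7 of the 9 T or NK markers were at 0, Cd3e, Cd3d and Cd3g among them, and 2 of the 10 macrophage markers were, Adgre1 and Fcer1g. Others were higher in recovered than in S961: Lyz2 at 146 against 7.78 CPM, C1qa at 22.2 against 10.2 CPM, Cd68 at 15.8 against 2.99 CPM and Ccl5, of the T or NK markers, at 130 against 2.99 CPM. The part of these differences in the result was not tested.

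**Figure D4:**
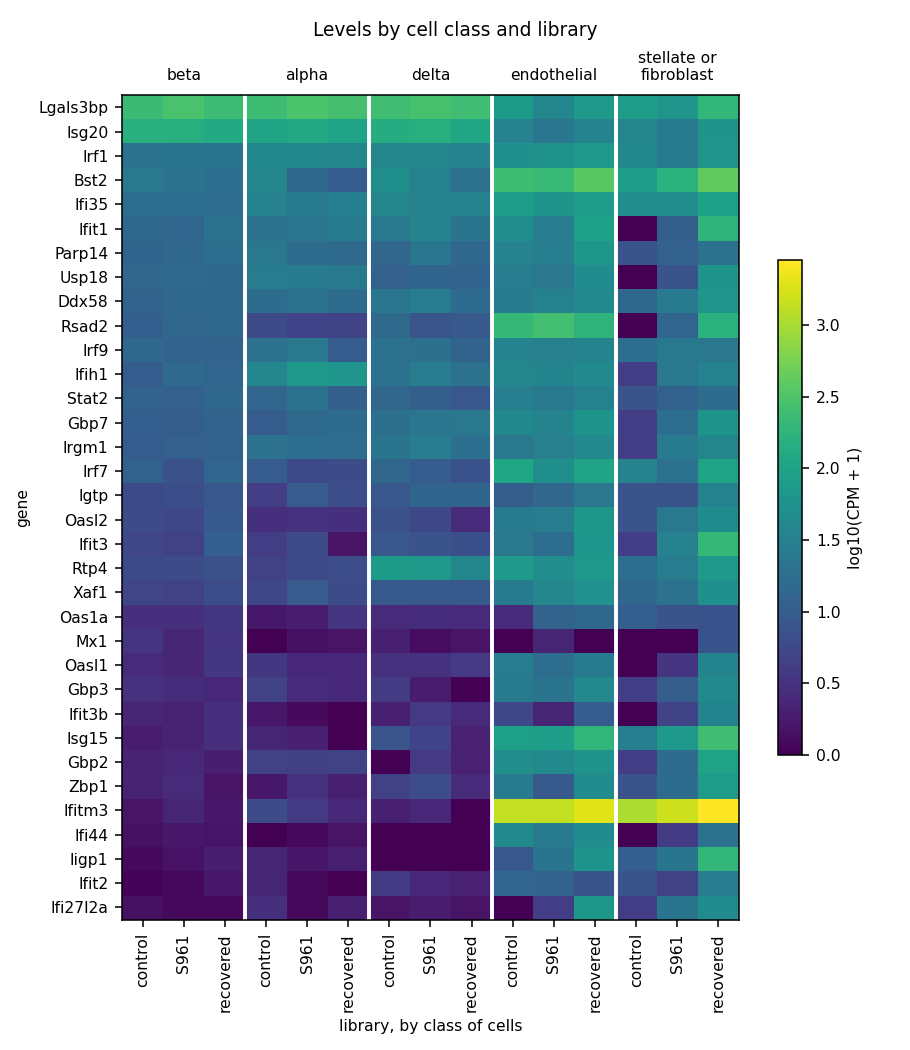
Levels of the 34 genes (rows) by cell type and library (columns), coloured as log10(CPM + 1). Bst2 is brightest in control in the hormone cell types and in recovered in the endothelial and stellate or fibroblast types, where Ifit3 reaches 196 CPM in the latter.

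Immune cells were few and uneven. Macrophage-like cells numbered 22, 81 and 18, so CPM are given for S961 alone: Bst2 at 1310, Ifitm3 at 701 and Lgals3bp at 329 CPM. Their UMIs in the 3 libraries were 71, 852 and 24 for Bst2 and 43, 456 and 42 for Ifitm3. Of the recovered macrophage-like cells' 66 Ifit3 UMIs, 41 came from 1 cell. T or NK-like cells (3, 30 and 142) had Ifi27l2a at 475, Bst2 at 305 and Isg15 at 156 CPM in the recovered library. B-like cells (1, 23 and 64) had Ifi27l2a at 236, Bst2 at 157 and Isg20 at 111 CPM there. In acinar-like cells, which make digestive enzymes, 107 cells of the S961 library had Ifitm3 at 138, Bst2 at 22.1 and Isg20 at 19.7 CPM. Ductal-like cells (7, 18 and 20) had 21, 27 and 30 UMIs of Ifitm3.

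Ifi27l2a stood elsewhere than the rest of the list. Of its 2246 UMIs over all analysed cells, 69.5% lay in 2 insulin-rich clusters (315, 312 and 375 cells) whose leading genes are pseudogenes and which were kept apart from beta-like cells for that reason, while the 6518 beta-like cells had 20. In those clusters it had 303, 764 and 494 UMIs, or 180, 223 and 162 CPM, and 38.7, 62.5 and 46.1% of cells had a UMI of it. In beta-like cells it stood at 0.441, 0.231 and 0.223 CPM, and 0.339, 0.335 and 0.241% of cells had one. The median depth of the pseudogene-led cells was 5275, 9404 and 7647 UMIs, below that of beta-like cells, and insulin made up 49.7, 46.3 and 50.4% of their UMIs.

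Most other genes of the list were lower there than in beta-like cells. Bst2 had 2, 3 and 1 UMIs, or 1.19, 0.874 and 0.327 CPM, and Lgals3bp stood at 11.9, 14.0 and 14.1 CPM, against 227, 289 and 234 CPM in beta-like cells. Isg20 stood at 66.0, 80.1 and 76.6 CPM, and Ifi35 at 22.6, 18.4 and 22.3 CPM, at or above its beta cell level. Of 34 genes 18, 25 and 26 had intervals below those of beta-like cells, and 1, 1 and 3 above. These values describe the clusters and are no test, since the clusters were drawn from the same cells.

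**Figure D5:**
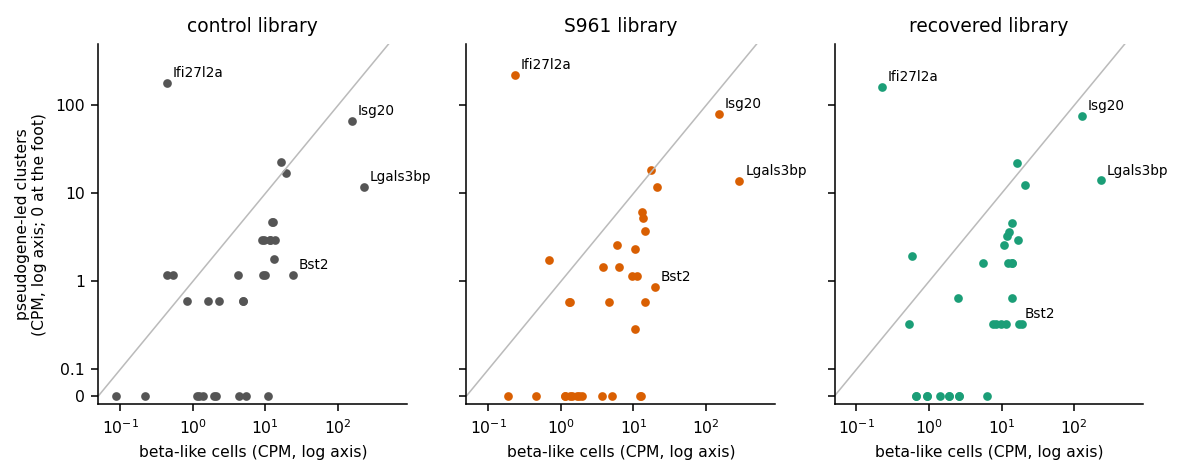
Levels (CPM, log axes) of the 34 genes in the pseudogene-led clusters (vertical) against beta-like cells (horizontal), 1 panel per library and 1 point per gene, with the line of equality and values of 0 drawn at the foot. Ifi27l2a lies far above the line at 162 to 223 CPM, and Lgals3bp and Bst2 lie below it.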

How the data were processed

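RNA of 3 islet libraries was measured as UMI counts per gene and cell. The counts were deposited by the authors as raw whole numbers in 1 table of 31053 genes and 24590 barcodes. Cell Ranger and the mm10 build are named per the submitters' processing notes, and its version is not given in the sources used here. Libraries totalled 38265969 (control), 47651767 (S961) and 40102058 (recovered) UMIs. Groups came from the sample labels, and cells from the barcode suffix that the labels give for each library.

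Barcodes under 500 genes or over 20% mitochondrial UMIs were left out, and Scrublet (scanpy 1.11.5, expected rate 0.06) removed 3 of 4270, 77 of 3507 and 24 of 3537 cells as doublets; in the control library it marked 0.0703%, so doublets there were hardly treated. Counts were scaled to 10000 per cell, logged, reduced to 2000 variable genes and 30 principal components, and clustered (Leiden at 0.5, leidenalg 0.10.2) into 18 clusters, named by 16 marker sets. Clusters led by pseudogenes were kept apart and 3 stayed unnamed: 1 had 2 detected markers of its best type, and 2 were shallow and had no marker of theirs among the 10 leading genes. The analysed cells held 29118005, 41529899 and 31637792 UMIs.

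UMIs were summed per type and library. Ratios carry exact conditional binomial intervals, levels exact Poisson intervals and shares Clopper-Pearson intervals, all at 95% and covering counting error only (scipy 1.17.1, numpy 2.4.6, pandas 2.3.3). Levels of a type with under 50 cells or 100000 UMIs in a library are given as UMIs. A 0 was set to a floor of 3 UMIs for fold values. The ratio and interval code was checked on simulated counts.

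Genes named were the 12 with most UMIs and every gene past 1.5-fold in beta-like cells, and in other types the 3 highest and the 2 largest ratios each way in S961 over control; others are marked. The gene list, roles, pathway list and markers were chosen with earlier results of these data known. Alternatives covered cell averaging, thinning, cell filters, minimum counts, the fold, scaling, doublets and cells left out. A result on 1 pathway gene is not reported here.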

Additional observations from a re-analysis of the deposited data

Results flagged for a closer look

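Several genes moved in opposite directions in different cell types under the same contrast, with counting intervals off equality on both sides. With 1 library per group the difference between types was not tested, and all types of a contrast share the same libraries.

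For S961 over control, Bst2 had log2 ratios of -1.43 in alpha-like and -0.70 in delta-like cells and 0.90 in stellate or fibroblast-like cells. For recovered over control it had -1.99 in alpha-like and -1.50 in delta-like cells, against 0.65 in endothelial-like and 2.23 in stellate or fibroblast-like cells. For recovered over S961 Bst2 had -0.80 in delta-like cells, against 0.80 in endothelial-like and 1.33 in stellate or fibroblast-like cells.

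In the same contrast Ifit1 had -0.76 in delta-like cells, against 0.64 in beta-like, 1.75 in endothelial-like and 4.12 in stellate or fibroblast-like cells. Ddx58 had -0.86 in delta-like and 1.30 in stellate or fibroblast-like cells, and Rtp4 had -0.86 and 1.37 in the same types.

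The barcodes that the filters removed also held UMIs of these genes, some above and some below the control level. Ifitm3 had 201 UMIs there in S961 against 42 in control (log2 ratio 3.20), Ifi27l2a 41 against 22 (1.84) and Bst2 106 against 80 (1.35). Rsad2 had 92 in recovered against 68 in control (0.59). Lower there in S961 than in control were Usp18 (17 against 76 UMIs, -1.22, -2.07 to -0.45) and Lgals3bp (246 against 812, -0.78), and lower in recovered than in control were Bst2 (41 against 80, -0.81) and Lgals3bp (584 against 812, -0.32).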

How the results depend on the processing

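No paired analysis was possible because each group had 1 library, and for the same reason no replicate could be left out. All values are from beta-like cells. Under the alternatives, 346 values of single genes stayed within their counting interval, 84 moved beyond it and 6 reversed. Of the counts, medians and shares, 76 stayed within their counting interval or within 1.5 times the main count and 53 did not. In S961 over control the main count was 1 higher and 2 lower. It was 1 lower after thinning to 2000 UMIs, without cells holding markers of other types, and at a minimum of 200 UMIs. It was 2 higher in cells at 4 to 7% mitochondrial UMIs, 4 higher at a minimum of 10 UMIs and at the lower fold limit tried, and 0 higher and 0 lower at 2-fold. In recovered over S961 the main count was 8 higher and 1 lower. It was 5 higher and 0 lower after thinning, 3 and 0 at 4 to 7% mitochondrial UMIs, 3 and 0 without cells holding markers of other types, 3 and 0 without ISG-rich cells (an alternative chosen after seeing the data), 4 and 0 at a minimum of 200 UMIs, 13 and 2 at the lower fold limit, and 1 and 0 at 2-fold. The lower count was 0 for the mean of cells' CPM and with doublets kept, and 3 at a minimum of 10 UMIs. In recovered over control the main count was 5 higher and 0 lower. It was 3 and 1 for the mean of cells' CPM, 3 higher after thinning and at a minimum of 200 UMIs, 0 and 1 without cells holding markers of other types, 0 and 2 without ISG-rich cells, 13 and 2 at the lower fold limit, and 2 higher at 2-fold. The lower count was 1 under the filter of 1000 genes and 10% mitochondrial UMIs, at 4 to 7% mitochondrial UMIs and with the median of all genes set to 0, and 2 at a minimum of 10 UMIs. The share of cells with at least 3 genes (7.37, 7.56 and 7.21% in control, S961 and recovered) was 25.2, 28.1 and 24.8% at 4000 UMIs per cell, 27.9, 26.3 and 25.7% for 2 genes, and 0.644, 0.847 and 1.38% for 5 genes. In S961 it was 9.36% under the stricter filter, 4.17% without cells holding markers of other types and 6.0% with another seed, and in recovered 8.44% with another seed. Reversed without cells holding markers of other types were Ifit3 in recovered over S961 (-0.13) and over control (-0.089) and Isg15 over control (-0.45). Reversed without ISG-rich cells, which were chosen by UMIs of these same genes, were Ifit3b (-0.51) and Isg15 (-0.11) over S961 and Ifit3 over control (-0.20). These alternatives also leave fewer cells, the marker filter also selects on depth, and the cause was not tested otherwise. No beta-like cluster had a gene of the list among its 10 leading genes, so leaving such clusters out gave no value. Genes under about 50 UMIs were limited by depth.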

Other observations

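The barcodes left out by the filters on genes and mitochondrial share numbered 6610, 2398 and 4268 in the control, S961 and recovered libraries. They held 9125800, 4754020 and 8197471 UMIs, and called doublets are not among them. The 34 interferon-stimulated genes summed to 315, 346 and 295 CPM in them, against 605, 665 and 622 CPM in beta-like cells.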
